A study of Thermochaetoides thermophila with 9 samples.

Results

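A set of 3 genes of the thermophilic filamentous fungus Chaetomium thermophilum, each with a cellulose-related name in the study, was followed across 3 carbon conditions. They were chosen by locus tag from 7785 listed genes. CTHT_0003950 is named a putative cellulose-binding protein (CBP), and CTHT_0045500 and CTHT_0060530 are named cellulase-like proteins. Read counts do not test these names, which are used here as the study gives them.

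Wild-type mycelium was grown in a complete medium at 50 °C and then depleted of carbon in sugar-free minimal medium, for 48 h according to the sample descriptions. For a further 6 h it received 1% D-glucose (glucose), 1% D-xylose (xylose) or no sugar (reference), and polyadenylated RNA of whole-cell extracts was sequenced. Each condition had 3 biological replicates, so that, by these descriptions, all 9 libraries share the wild-type genotype, the preculture and the depletion step and differ in the sugar of the last 6 h. The study's text describes the steps differently in places, with a preculture in glucose medium, another depletion time and reference RNA taken from the depleted mycelium, so that in a comparison with the reference the sugar and any added time or transfer to fresh medium cannot be told apart. The libraries held 38806913 to 52229013 counted reads, of which a single ribosomal RNA gene, CTHT_0000050, took between 7.36% and 32% in spite of the poly(A) selection.

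Cellulose is broken down by fungi with secreted enzymes of several kinds. Endoglucanases cut within the glucan chain, cellobiohydrolases (cellobiosidases) release cellobiose from its ends, lytic monooxygenases cleave crystalline cellulose oxidatively, and beta-glucosidases split cellobiose into glucose. Many of these enzymes, and some proteins without a catalytic domain, carry a cellulose-binding module that holds them on the polymer. In many filamentous fungi, glucose represses the genes of plant cell wall degradation, and xylose, the main sugar of xylan, can act as an inducer of some of them.

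The 3 genes differed in their calls. CBP was lower in glucose and higher in xylose than in the reference, CTHT_0060530 was lower in both sugars, and no change of CTHT_0045500 passed the test. Values are given as CPM, the reads of a gene per 1000000 reads of its library, after scaling of library sizes by the trimmed mean of M values (TMM). Tests are those of edgeR's quasi-likelihood fit over all 9 libraries, with p-values adjusted by Benjamini-Hochberg over the 6904 genes tested and a threshold of 0.05. All 3 genes passed the filter on low counts and were tested.

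CBP had 5.07, 4 and 3.7 CPM in reference replicates 1 to 3, from 261, 186 and 155 reads. In glucose the same transcript stood at 0.393, 0.548 and 0.837 CPM, from 21, 26 and 23 reads. In xylose it stood at 11.6, 34.5 and 8.53 CPM, from 657, 1588 and 434 reads. Every xylose library thus lay above every reference library and every reference library above every glucose library, and the 3 groups did not overlap. Xylose replicate 2 stood apart from the other xylose libraries, at 4.04 times the level of xylose replicate 3.

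Glucose lowered CBP 7.34-fold, from 4.26 ± 0.717 to 0.593 ± 0.225 CPM (mean ± SD, n = 3 each). The log2-fold change was -2.87 with a standard error of 0.54 and a 95% interval of -4.06 to -1.69 (edgeR, adjusted p = 0.00157). Because each library was made from whole mycelium, fewer cells carrying the transcript and less transcript per cell cannot be told apart. Xylose raised CBP 4.27-fold over the reference, to 18.2 ± 14.2 CPM (log2-fold change 2.09, standard error 0.50, 95% interval 1.01 to 3.18, edgeR adjusted p = 0.0032). The size of this rise rested in part on xylose replicate 2, without which it was 1.25 on the log2 scale (edgeR adjusted p = 0.00961).

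Between the sugars, CBP was 31.3-fold higher in xylose, with a log2-fold change of 4.97 (standard error 0.58, 95% interval 3.7 to 6.24, edgeR adjusted p = 9.09e-05). Only 4 of the 6904 genes tested had a larger positive change in this comparison. The study had picked CBP from these same libraries as a xylose-regulated gene. Its rank is thus a description and no independent evidence. Without xylose replicate 2 the difference was 4.12, and it remained past the threshold in each of the 9 fits that left out 1 library. Its place in the other comparisons was less extreme, with rank 197 from the lowest for glucose against the reference and rank 983 from the highest for xylose against the reference. Beyond these libraries, the study measured CBP by quantitative real-time PCR (qRT-PCR) and reported changes close to those of the sequencing. It also put a fluorescent protein under the CBP promoter and reported a weak immunoblot signal in xylose and none in glucose. In that strain, fluorescence was reported as barely detectable in either sugar.

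**Figure D1:**
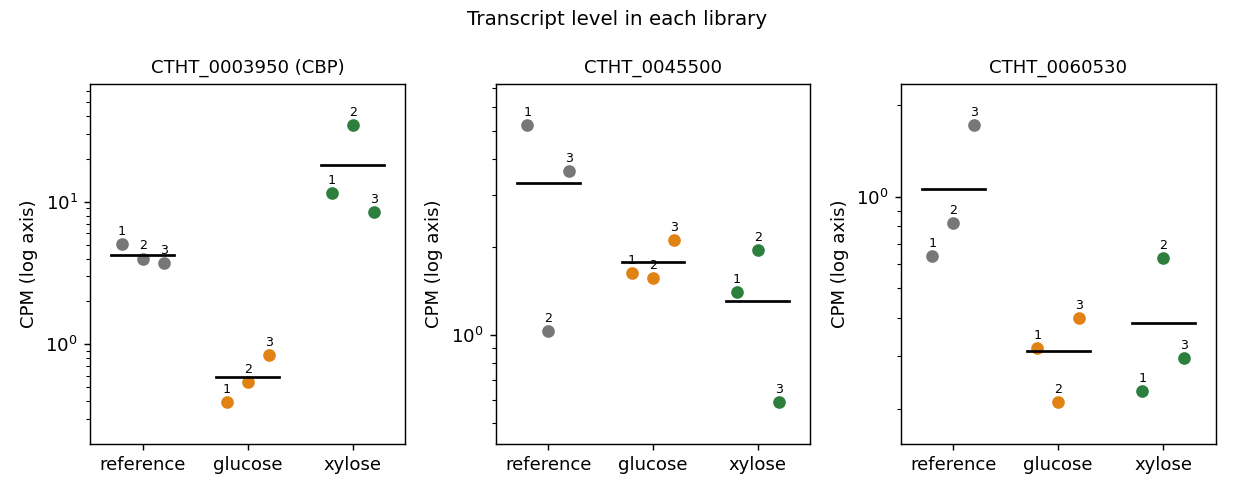
Transcript level of the 3 genes in each of the 9 libraries, in CPM on a log axis that differs between panels. Points are libraries numbered by replicate and bars are group means of 3. CBP forms 3 separate groups, from 0.393 to 0.837 CPM in glucose, 3.7 to 5.07 in the reference and 8.53 to 34.5 in xylose. The groups of CTHT_0045500 overlap, and CTHT_0060530 is highest in the reference.

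CTHT_0060530 was scarce in every library. In the reference it had 0.64, 0.818 and 1.72 CPM, from 33, 38 and 72 reads in replicates 1 to 3. In glucose it had 0.318, 0.211 and 0.4 CPM, from 17, 10 and 11 reads. In xylose it had 0.23, 0.629 and 0.295 CPM, from 13, 29 and 15 reads. The reference libraries lay above all 6 sugar libraries, though reference replicate 1 at 0.64 CPM and xylose replicate 2 at 0.629 CPM nearly touched. The glucose and xylose libraries overlapped. At this depth counting error alone is wide, since the 10 reads of glucose replicate 2 have an exact Poisson 95% interval of 4.8 to 18.4 reads, which covers counting error only.

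CTHT_0060530 fell 3.44-fold in glucose, from 1.06 ± 0.578 to 0.31 ± 0.095 CPM (n = 3 each, log2-fold change -1.78, standard error 0.56, 95% interval -3.02 to -0.55, edgeR adjusted p = 0.022). It fell 2.75-fold in xylose, to 0.385 ± 0.214 CPM (log2-fold change -1.46, standard error 0.54, 95% interval -2.66 to -0.27, edgeR adjusted p = 0.0338). Neither decrease held in every fit that left out 1 library. The glucose call was lost without reference replicate 3 (-1.25, adjusted p = 0.107), glucose replicate 1 (-1.59, adjusted p = 0.0857) or glucose replicate 2 (-1.56, adjusted p = 0.0939). The xylose call was lost without reference replicate 3 (-0.93, adjusted p = 0.174), glucose replicate 1 (-1.40, adjusted p = 0.0536), xylose replicate 1 (-1.30, adjusted p = 0.0965) or xylose replicate 3 (-1.29, adjusted p = 0.109), and also with only the reference and xylose libraries in the fit (-1.47, adjusted p = 0.0571). Reference replicate 3, where the gene was highest, was also the library with the largest share of CTHT_0000050 reads, 32%. With that ribosomal gene left out of the library sizes and scaling, the changes were -1.65 in glucose (edgeR adjusted p = 0.0281) and -1.38 in xylose (edgeR adjusted p = 0.0398).

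Between xylose and glucose the difference of CTHT_0060530 was 0.32 (95% interval -0.94 to 1.58, edgeR adjusted p = 0.658) and took the opposite sign without xylose replicate 2, at -0.21. The interval spans changes in either direction, and the difference did not exceed the spread between replicates.

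CTHT_0045500 varied most within the reference. Its levels there were 5.22, 1.03 and 3.65 CPM, from 269, 48 and 153 reads. In glucose they were 1.63, 1.56 and 2.11 CPM, from 87, 74 and 58 reads. In xylose they were 1.4, 1.95 and 0.589 CPM, from 79, 90 and 30 reads. Reference replicate 2 lay below all 3 glucose libraries and below xylose replicates 1 and 2, so that each pair of groups overlapped. Reference replicates 1 and 3 lay above all 6 sugar libraries.

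For CTHT_0045500 the reference averaged 3.3 ± 2.12 CPM, the glucose group 1.77 ± 0.3 and the xylose group 1.31 ± 0.686 (n = 3 each). Against the reference the log2-fold change was -0.91 in glucose (95% interval -2.17 to 0.35, edgeR adjusted p = 0.21) and -1.33 in xylose (95% interval -2.6 to -0.06, edgeR adjusted p = 0.0618). Between xylose and glucose it was -0.42 (95% interval -1.69 to 0.84, edgeR adjusted p = 0.559). Without reference replicate 2 both differences from the reference passed the test, at -1.32 in glucose (edgeR adjusted p = 0.0378) and -1.84 in xylose (edgeR adjusted p = 0.00621). The xylose difference also passed without xylose replicate 2 (-1.72, adjusted p = 0.0355) and, with all libraries, in the Wald test of DESeq2 (-1.34, adjusted p = 0.0324).

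**Figure D2:**
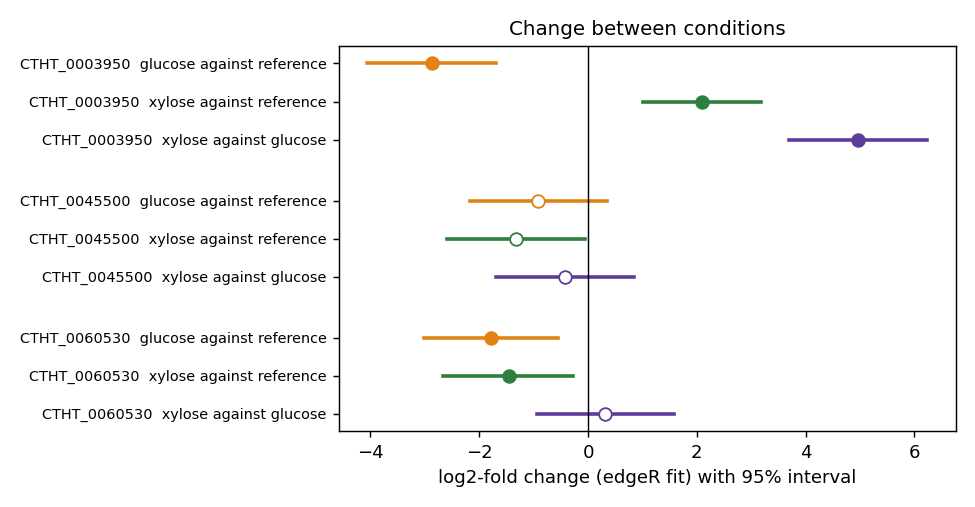
Log2-fold changes of the 3 genes in the 3 comparisons, from the edgeR fit, with 95% intervals; filled points passed the adjusted threshold of 0.05 and open points did not. CBP passed in all 3 comparisons, with -2.87, 2.09 and 4.97, CTHT_0060530 against the reference only, and CTHT_0045500 in none.

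Against the background of all genes, a call was common in these data. For glucose against the reference 2 of the 3 genes were called, where 49.5% of all genes tested were. For xylose against the reference it was again 2 of 3, where 64.6% of all genes were called, and for xylose against glucose it was 1 of 3, where 50.8% were. Libraries of the compared groups did not overlap for 2, 2 and 1 of the 3 genes, where this held for 60.2%, 66.3% and 64.5% of all genes in the same order of comparisons. Read against this background, the number of members called is no result about them. The 3 comparisons share libraries and are not independent of each other. Of the 6904 genes, 80 (1.16%) had the calls of CBP, lower in glucose and higher in xylose than the reference and higher in xylose than in glucose. The calls of CTHT_0060530, lower in both sugars and not called between them, were those of 807 genes (11.7%), and 1260 genes (18.3%) had no call in any comparison, as did CTHT_0045500.

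All 3 genes varied more between replicates than most. The biological coefficient of variation fitted by edgeR was 42% for CBP, 48.4% for CTHT_0045500 and 42.8% for CTHT_0060530, against a median of 29.9% over the genes tested. That median covers genes of all levels, and a comparison with genes of like level was not tested. For CBP in xylose, the replicates had a coefficient of variation of 77.9%, while counting alone would give 3.74%. For CTHT_0045500 in the reference the values were 64.1% and 9.54%. For CTHT_0060530 in glucose they were close to each other, at 30.7% and 28.7%, so that the spread of that group was near the counting error.

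The reads of CBP were also set against those of each cellulase-like gene within the same library, which does not depend on the scaling of libraries. These ratios compare reads and not molecules, since gene length was not taken into account, but their change between conditions is free of length. Relative to CTHT_0045500, the log2 ratio of CBP reads was -2.02, -1.49 and -1.32 in glucose and 3.05, 4.13 and 3.83 in xylose, replicates 1 to 3. In the reference it was -0.04, 1.94 and 0.02. Glucose libraries thus held fewer CBP reads than CTHT_0045500 reads and xylose libraries more, with the reference libraries between them. Relative to CTHT_0060530 the log2 ratio was 0.30, 1.34 and 1.03 in glucose, 2.96, 2.28 and 1.10 in the reference, and 5.61, 5.75 and 4.81 in xylose. Here the xylose libraries lay above all others, while the reference and glucose overlapped.

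From glucose to xylose the mean log2 ratio moved by 5.28 (38.9-fold) against CTHT_0045500 and by 4.50 (22.6-fold) against CTHT_0060530, higher in 3 of 3 xylose libraries than in any glucose library for both. The exact two-sided permutation test gave p = 0.1 for each of these 2 ratios, adjusted 0.1 over both, which is the smallest p that 3 against 3 libraries allow. Xylose replicate 2, which was high for CBP in CPM, lay within 1 log2 unit of another xylose library in both ratios, and it was also the highest xylose library for both cellulase-like genes.

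**Figure D3:**
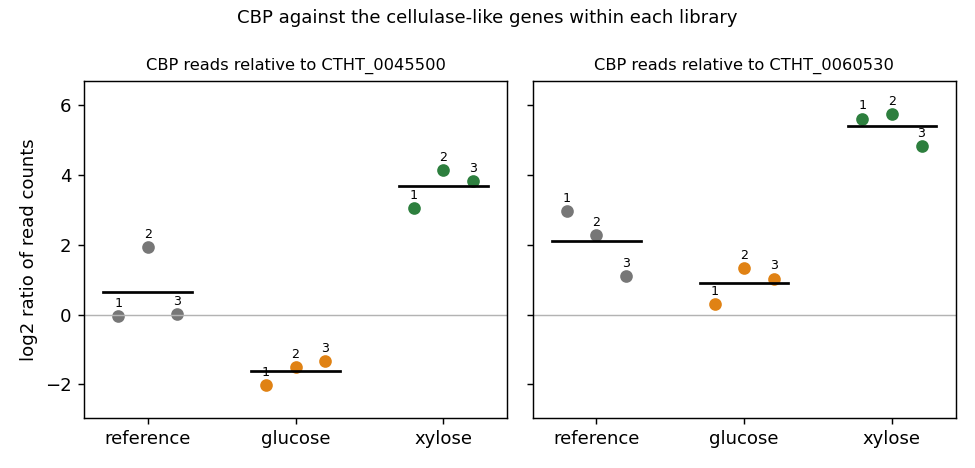
Log2 ratio of CBP reads to the reads of CTHT_0045500 (left) and of CTHT_0060530 (right) within each library, with 0.5 added to each count; points are libraries numbered by replicate and bars are means of 3. In both panels the 3 xylose libraries lie above the 6 others, at 3.05 to 4.13 on the left and 4.81 to 5.75 on the right.

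For the pathway around the 3 genes, 15 further genes were taken that the study's lists of changed genes annotate as cellulose binding, lytic cellulose monooxygenase, cellobiosidase, endoglucanase or beta-glucosidase. These lists were drawn from the same libraries and were held in part only, so that neither the direction of the 15 genes nor the share of them called nor their median is independent evidence. The values over all genes are given beside them as a description, from which nothing is read about the list. Glucose against the reference gave 12 decreases and 1 increase among the 15, where 25.4% and 24.0% of all genes were called lower and higher. Their median log2-fold change was -1.54, against -0.05 over all genes tested. The number called depended on single libraries and was 7 without glucose replicate 2. All 3 lytic monooxygenase genes, both cellobiosidase genes, the endoglucanase gene, 3 of the 4 cellulose-binding genes and 4 of the 6 beta-glucosidase genes were called lower in glucose, with CTHT_0022130 counted both as a monooxygenase and as cellulose-binding. Without glucose replicate 2 the calls of the cellobiosidase gene CTHT_0007770, the endoglucanase gene CTHT_0055880 and the beta-glucosidase genes CTHT_0022080, CTHT_0065450 and CTHT_0070390 were lost. The endoglucanase call (-1.24, edgeR adjusted p = 0.0333) was also lost in 4 other fits that left out 1 library and with library totals as the only scaling, with no filter on low counts or with the replicate block (adjusted p of 0.0603, 0.0673 and 0.0519). Of the 9 fits that left out 1 library, CTHT_0065450 kept its call in 2, CTHT_0070390 in 4, and CTHT_0007770 and CTHT_0022080 in 6 each. Under the 8 other settings for scaling, filter, test or design, CTHT_0065450 kept it in 3 and CTHT_0070390 in 4. The reference and glucose groups of CTHT_0070390 overlapped, and its change was -0.59 without reference replicate 2 (edgeR adjusted p = 0.387).

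The largest decreases in glucose were those of CTHT_0019650, annotated as a cellulose-binding acetylxylan esterase (-4.32, from 4.46 to 0.217 CPM, edgeR adjusted p = 0.000333), the cellobiosidase gene CTHT_0042000 (-2.64, edgeR adjusted p = 0.00341) and the monooxygenase gene CTHT_0022130 (-2.35, edgeR adjusted p = 0.00066). Acetylxylan esterases remove acetyl groups from xylan. The change of CBP in glucose, -2.87, lay between the first 2 of these. The beta-glucosidase gene CTHT_0010430 was the one that rose, by 1.03 (edgeR adjusted p = 0.0204), a call lost without reference replicate 1, glucose replicate 2 or glucose replicate 3 (highest adjusted p 0.0912).

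Xylose against the reference gave 7 decreases and 1 increase among the 15, where 32.4% and 32.3% of all genes were called lower and higher. The median of the list was -1.14, against -0.05 over all genes. CTHT_0022130 fell by 3.52 (edgeR adjusted p = 2.73e-05), CTHT_0019650 fell by 3.30 (edgeR adjusted p = 0.000472) and the monooxygenase gene CTHT_0000930 fell by 1.94 (edgeR adjusted p = 0.000268). The gene that rose was CTHT_0050130, another annotated cellulose-binding acetylxylan esterase, by 1.49 (edgeR adjusted p = 0.00215). Among the members and the list, CBP and CTHT_0050130 were thus called higher in xylose than in the reference, while CTHT_0060530 was among those that fell.

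Between the sugars, the list split into 3 with a higher level in xylose, 3 with a lower level and 9 not called, where 28.2% and 22.6% of all genes were called higher and lower, and the median was 0.59 against 0.16 over all genes. CTHT_0050130 was 8.8-fold higher in xylose (log2-fold change 3.14, edgeR adjusted p = 7.67e-05) and CTHT_0042000 3.97-fold higher (1.99, edgeR adjusted p = 0.0117). The beta-glucosidase gene CTHT_0065450, named after its values were seen because its groups overlapped, was 2.8-fold higher (1.48, edgeR adjusted p = 0.0231), a call lost without glucose replicate 2, glucose replicate 3 or xylose replicate 1 (0.70, adjusted p = 0.204) and with only the compared conditions in the fit (1.37, adjusted p = 0.058). CTHT_0010430 changed by -2.53 on the log2 scale (edgeR adjusted p = 0.000166). CTHT_0022130 changed by -1.17 (edgeR adjusted p = 0.0245), a call lost without glucose replicate 2, glucose replicate 3 or xylose replicate 3, and the beta-glucosidase gene CTHT_0022080 by -0.93 (edgeR adjusted p = 0.0118), a call lost without xylose replicate 3. Both calls were also lost with library totals as the only scaling, at -0.95 and -0.72.

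**Figure D4:**
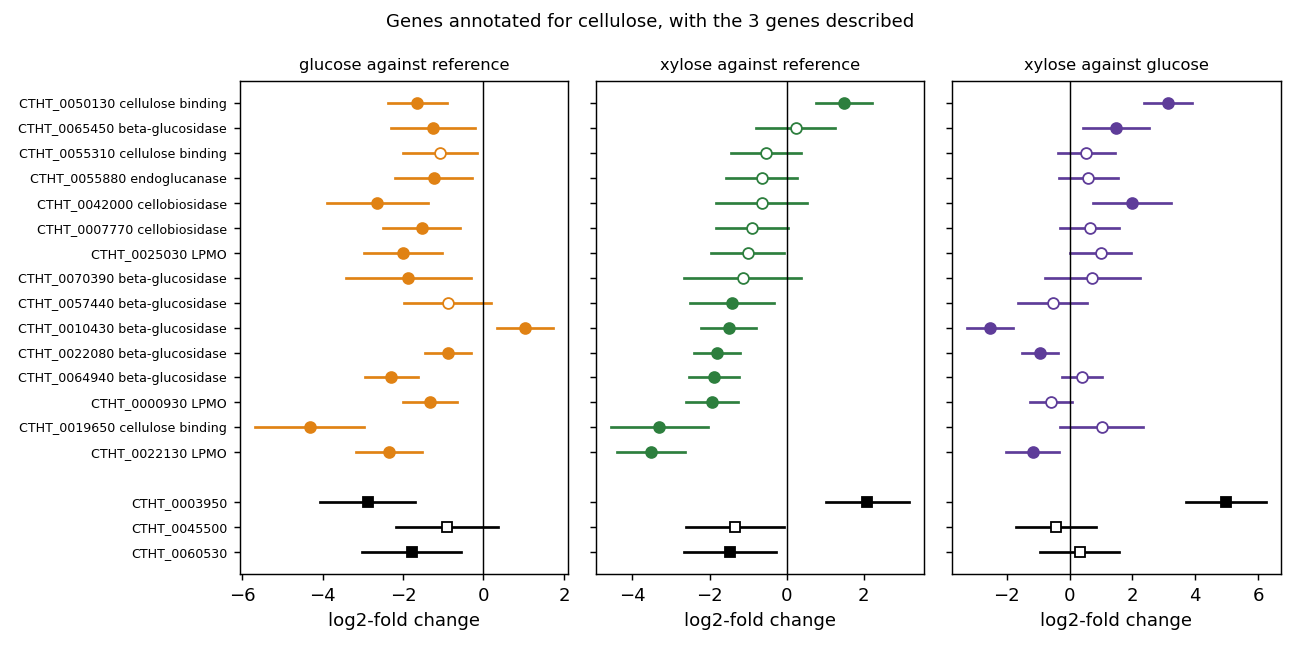
Log2-fold changes of the 15 further genes annotated for cellulose (circles) and of the 3 genes described (squares) in the 3 comparisons, with 95% intervals; filled symbols passed the adjusted threshold of 0.05. In glucose 12 of the 15 lie to the left of 0 as filled points, and in xylose against glucose CBP lies farthest to the right, at 4.97, followed by CTHT_0050130 at 3.14.

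CTHT_0050130 shared the pattern of CBP in every group. Its levels were 35.8, 22.4 and 21.7 CPM without sugar, 9.17, 9.19 and 7.13 with glucose and 59.1, 113 and 52.3 with xylose, with no overlap between groups and xylose replicate 2 highest. Of the 80 genes with the calls of CBP, it was the 1 that belonged to the 15.

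The genes whose level followed each member most closely were found by Pearson's correlation of log2 CPM over the 9 libraries, which is a description over libraries that share sequencing depth and conditions. For CBP, 8 genes had a correlation above 0.95. The 5 closest were CTHT_0006100 (r = 0.985), CTHT_0044760 (0.984), CTHT_0050130 (0.981), CTHT_0060370 (0.976) and CTHT_0032600 (0.961). CTHT_0006100 had only 1 to 23 reads per library. CTHT_0044760 is annotated as a homocitrate synthase-like protein, an enzyme of fungal lysine synthesis, and was 5.12-fold higher in xylose than in glucose (log2-fold change 2.36, edgeR adjusted p = 0.000443). CTHT_0032600, annotated as a carbamoyl-phosphate synthase and aspartate carbamoyltransferase of pyrimidine synthesis, was 5.25-fold higher (2.39, edgeR adjusted p = 0.000173), and CTHT_0060370 was 7.16-fold higher (2.84, edgeR adjusted p = 6.57e-05). These 3 genes were also called lower in glucose and higher in xylose than in the reference. The glucose call of CTHT_0044760 (-1.10, edgeR adjusted p = 0.0265) was lost in each fit that left out reference replicate 1 or 3 or glucose replicate 1 or 2, and with no filter on low counts.

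The cellulase-like genes followed other genes. For CTHT_0045500 the closest were CTHT_0050030 (r = 0.983), CTHT_0041790 (0.937), CTHT_0052060 (0.934), CTHT_0010660 (0.93) and CTHT_0054960 (0.928), of which CTHT_0041790 had a call, lower in xylose than in the reference (-0.90, edgeR adjusted p = 0.0167, lost without reference replicate 1 or xylose replicate 3 and with library totals as the only scaling), and the other 4 had none in any comparison. For CTHT_0060530 they were CTHT_0053220, listed as a pseudogene in RefSeq (0.964), CTHT_0014070 (0.945), CTHT_0073620 (0.939), CTHT_0014410 (0.939) and CTHT_0023820 (0.938). Of these, CTHT_0073620 fell by 1.73 in glucose (edgeR adjusted p = 0.00124) and by 1.62 in xylose (edgeR adjusted p = 0.000841), and CTHT_0023820 changed by -3.55 (edgeR adjusted p = 0.000939) and -3.92 (edgeR adjusted p = 0.000229). CTHT_0053220 was also called lower in glucose (-1.38, edgeR adjusted p = 0.0099) and in xylose (-1.01, edgeR adjusted p = 0.0292). So was CTHT_0014070 (-2.69, edgeR adjusted p = 0.0173, and -3.01, edgeR adjusted p = 0.00638). CTHT_0014410 was called lower in xylose only (-0.66, edgeR adjusted p = 0.0393). CTHT_0023820 had only 5 to 10 reads per library in glucose and 4 to 10 in xylose, and CTHT_0014070 only 1 to 5 in either sugar. Of the 9 fits that left out 1 library, CTHT_0053220 kept its call in 8 for glucose and 6 for xylose. CTHT_0014070 kept its calls in 6 and 9, and CTHT_0014410 its call in 2. Under the 8 other settings, the xylose calls of CTHT_0053220 and CTHT_0014410 held in 6 and 3. Among the members themselves the correlation was -0.059 for CBP and CTHT_0045500, 0.199 for CBP and CTHT_0060530 and 0.523 for the cellulase-like pair.

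In the gene order of the RefSeq annotation, no neighbour overlapped a member. Next to CBP, CTHT_0003940 was lower in xylose than in the reference (-0.92, edgeR adjusted p = 0.0206, lost without reference replicate 1 or 3 or xylose replicate 1 or 3). It was not called between the sugars (-0.73, edgeR adjusted p = 0.0667), so that this neighbour did not share the rise of CBP. The gene beyond it, CTHT_0003930, was lower in glucose than in the reference (-1.95, edgeR adjusted p = 0.0325), with overlapping groups. That decrease missed the threshold without reference replicate 3 or any 1 glucose library. It also missed it with no filter on low counts, with the replicate block or with only the compared conditions in the fit (edgeR adjusted p of 0.0544, 0.054 and 0.0528). CTHT_0003930 was not called in xylose against the reference (-0.86, edgeR adjusted p = 0.252) or glucose (1.10, edgeR adjusted p = 0.193, no overlap). On the other side of CBP, CTHT_0003960 and CTHT_0003970 were not tested. Next to CTHT_0060530, CTHT_0060520, annotated as a DnaJ homolog, fell by 1.95 in glucose (edgeR adjusted p = 0.000313) and by 2.56 in xylose (edgeR adjusted p = 2.37e-05), while CTHT_0060540 on the other side had no call. Beyond these, CTHT_0060510 had no call. CTHT_0060550 was lower in xylose than in the reference (-1.33, edgeR adjusted p = 0.0059) and than in glucose (-2.21, edgeR adjusted p = 0.000495). Both calls of CTHT_0060550 held in all 9 fits that left out 1 library. Next to CTHT_0045500, CTHT_0045490 had no call. On the other side, CTHT_0045510, the normalizer gene of the study's qRT-PCR, was higher in xylose than in the reference (0.68, edgeR adjusted p = 0.0222) and than in glucose (0.76, edgeR adjusted p = 0.0167). The first of these calls was lost without reference replicate 1 or 2 or xylose replicate 1 and with only the compared conditions in the fit, and the second without any 1 of the glucose libraries or xylose replicate 1. Beyond CTHT_0045510, CTHT_0045520 was higher than the reference in glucose (2.93, edgeR adjusted p = 0.000158) and in xylose (2.82, edgeR adjusted p = 6.82e-05). Both calls of CTHT_0045520 held in all 9 fits that left out 1 library. It was not called between the sugars (-0.12, edgeR adjusted p = 0.796), and CTHT_0045480, beyond CTHT_0045490, was not tested.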

How the data were processed

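Polyadenylated RNA of 9 libraries was sequenced single-end after a strand-preserving library preparation. The deposited table holds whole-number read counts per gene, which the authors made by mapping with TopHat2 to the genome of an Ensembl release and counting with summarizeOverlaps; how strand and multiply mapped reads were treated is not given in the sources used here. Columns with per-sample values that were not used numbered 0. Groups came from the sample titles. Counts were scaled by TMM, filtered with filterByExpr (minimum count 10) and tested with edgeR 4.0.16 (R 4.3.3), 1 quasi-likelihood model with the 3 conditions; the script was tested on simulated data. DESeq2 1.42.0, other scalings, filters and designs, and fits without each library were alternatives. Log2 ratios (0.5 added to each count) were tested with scipy 1.17.1. Likeness used log2 of CPM with 0.5 added. Exact Poisson intervals cover counting error only.

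The members and lists were chosen with earlier results of these data known. Besides the members, the text names the 5 most correlated genes of each, genes beside it in RefSeq order (7472 of 7785 identifiers matched; assembly CTHT_3.0), and, of the 15 list genes, up to 3 largest called, non-overlapping increases and decreases per comparison. A list from a protein signature, protein relatives, sequences and levels per gene length were not analysed here.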

Additional observations from a re-analysis of the deposited data

How the results depend on the processing

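CBP kept its direction and its call in all 3 comparisons under each of the 8 other settings, with log2-fold changes of -3.02 to -2.66 in glucose and 1.90 to 2.17 in xylose against the reference and 4.78 to 5.18 between the sugars. Without 1 library at a time they ranged from -3.16 to -2.42, 1.25 to 2.44 and 4.12 to 5.31. CTHT_0060530 ranged without 1 library from -2.04 to -1.25 in glucose, -1.99 to -0.93 in xylose and -0.21 to 0.55 between the sugars, where it reversed to -0.21 without xylose replicate 2. CTHT_0045500 ranged from -1.32 to -0.41, -1.84 to -0.83 and -0.82 to -0.07, and its decrease in xylose passed the threshold in the DESeq2 Wald test (-1.34, adjusted p = 0.0324). The decrease of CTHT_0060530 in xylose no longer passed with only the 2 compared conditions in the fit (-1.47, edgeR adjusted p = 0.0571), which leaves 1 of the 3 genes called there; the cause was not tested.

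Whether replicate numbers pair the samples was not settled. The deviations of same-numbered libraries correlated between -0.3 and 0.31, and those of different-numbered libraries between -0.26 and 0.3. With the number as a replicate block, the decrease of CTHT_0060530 in xylose was -1.39 (edgeR adjusted p = 0.0506), 1 of the 3 genes was called there, and no other call of the 3 genes changed. Members called without 1 library ranged from 1 to 3 in glucose, 1 to 3 in xylose and 1 to 1 between the sugars, and calls among the 15 list genes from 7 to 13, 7 to 9 and 4 to 7. The ratio differences ranged from 5.05 to 5.59 and from 4.21 to 4.79 without 1 library. Library totals as the only scaling moved the median of all genes between the sugars from 0.165 to 0.341. The same alternatives were applied to the list, like and neighbouring genes after the data had been seen, where 102 of 977 values obtained for their 58 calls missed the threshold and 0 reversed. The planned list from a protein signature was not run. Counting error is widest for CTHT_0060530, at 10 to 72 reads per library, and 3 libraries a condition limit the exact permutation test to p = 0.1. With same-numbered libraries taken as pairs, the exact sign-flip test gave p = 0.25 for each ratio, the smallest that 3 pairs allow.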
